A study of Drosophila melanogaster with 6 samples.

Results

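Glutathione S-transferases (GSTs) are enzymes that join the tripeptide glutathione to reactive compounds, which makes these compounds more soluble and easier to export. Most are dimers whose subunits hold a thioredoxin-like domain that binds glutathione and a helical domain that binds the other substrate. In Drosophila they fall into classes named by Greek letters, here given by the letter in the gene symbol: delta (D) and epsilon (E), which are large in insects and include enzymes of insecticide detoxification, and omega (O), sigma (S), theta (T) and zeta (Z).

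The genes described here are those whose platform symbol is GstD, GstE, GstO, GstS, GstT or GstZ with a number, each taken from probe sets assigned to exactly 1 gene. This gave 34 genes on 36 probe sets, of 11982 genes named in that way and 18769 probe sets that are not controls. Class D had 11 genes on 11 probe sets, class E 13 genes on 14, class O 3 genes on 4, class S 1 gene, class T 4 genes and class Z 2 genes. GstE9 and GstO2 had 2 probe sets each. GstE8 was not analysed here.

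All samples came from SL2 cells, a Drosophila line of embryonic origin that resembles haemocytes (insect blood cells). In the ISWI group, 3 cultures received 10 µg of double-stranded RNA (dsRNA) against ISWI, the ATPase of several chromatin remodelling complexes. In the GST group, 3 control cultures received 10 µg of dsRNA against GST. Both groups spent 1 hour with the dsRNA in serum-free medium, grew for 7 days without passaging and gave total RNA for 1 biotin-labelled array per culture; the series calls the replicates of a group biological.

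The control thus bears the name of the gene family measured here. The labels give neither the sequence nor the source species of the GST target, and no group without dsRNA was analysed here. A GST gene that was higher with ISWI dsRNA may therefore have risen there or have been lowered by the control dsRNA, and these cannot be told apart for any gene below. "Higher", "lower", "rose" and "fell" always mean the ISWI group relative to the GST group.

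Values are the deposited log2 values, on which a difference of 1 is a doubling. The Iswi transcript was 10.53, 10.54 and 10.47 on the GST arrays and 7.66, 7.74 and 7.16 on the ISWI arrays, so it fell on every ISWI array, to 12.6% of the control level (log2 fold change -2.99, limma adjusted p = 7.61e-06). The exact permutation test gave p = 0.1, the smallest possible with 3 against 3. All 9 haemocyte markers measured were above 4 on all arrays, and all 4 fat body, 3 gut and Malpighian tubule and 2 muscle markers were at or below 4 on all arrays. Of the haemocyte markers 2 rose and 3 fell, where 41.1% of all tested genes had a limma adjusted p below 0.05. Among them were the phagocytosis receptor genes eater (1.68-fold higher, adjusted p = 0.000153) and NimC1 (at 55.1%, adjusted p = 0.00255). Pxn fell (-0.29, adjusted p = 0.0365) with overlapping groups, and its other tested probe set, at -0.21, did not reach that threshold. The mean log2 level of the 9 haemocyte markers was 12.96 to 12.98 on the GST arrays and 12.85 to 12.97 on the ISWI arrays. Of 3 neuron markers 2 were above 4, elav and brp, with log2 fold changes of -0.39 (adjusted p = 0.0945) and -0.29 (adjusted p = 0.0454). Of the 4 probe sets of brp only this 1 was tested. The part of these markers in the GST results was not tested. In RNA from whole cultures, fewer cells of a type and less RNA per cell cannot be told apart.

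The test took in probe sets with log2 values above 4 on 3 or more of the 6 arrays. It was limma's moderated test over 7390 probe sets, and a gene passed at an adjusted p below 0.05. Of the 36 GST probe sets, 25 (24 genes) were tested, and each of these 25 lay above 4 on all 6 arrays. The other 11 were at or below 4 on every array, between 2.01 and 3.29, and were not tested. These were GstD4, GstD6, GstD8, GstD11, GstE1, GstE4, GstE5, GstE10, GstE14, GstZ2 and the dimmer probe set of GstE9. GstE14, also called Noppera-bo, acts in ecdysteroid synthesis.

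Of the 25 tested GST probe sets, 15 passed, 8 higher and 7 lower in the ISWI group. That is 60.0% of them, where 40.2% of all tested probe sets passed. By direction, 32.0% of the GST probe sets were higher, against 22.1% of all, and 28.0% were lower, against 18.1% of all. Over all probe sets the balance of 1634 higher and 1340 lower became 1513 and 1522 with quantile normalization applied again and 1476 and 1510 with centred arrays, while the GST counts were 8 and 7 each time. The median log2 fold change was 0.11 for the GST probe sets and 0.01 for all, while the median size without sign was 0.40 and 0.20. The family therefore changed in both directions, with nearly equal numbers up and down. The groups of arrays did not overlap for 17 of the 25, or 68.0%, against 54.1% of all tested probe sets.

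Only 3 of these GST genes passed with a change of at least 2-fold: GstD7 up, GstE13 and GstO1 down. They are 12.0% of the tested GST probe sets, where 4.97% of all tested probe sets did so (3.34% higher and 1.62% lower). Of the 15 that passed, 9 changed by less than 1.5-fold. The same count was not made over all passing probe sets, so it does not set the family apart from them.

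**Figure D1:**
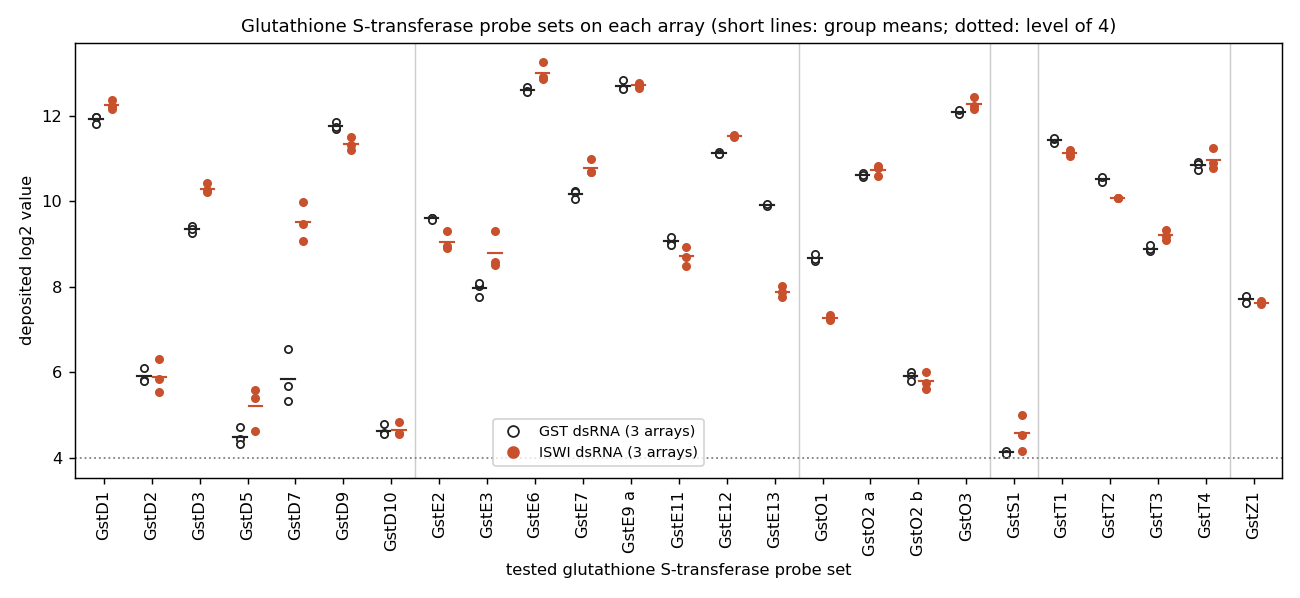
Deposited log2 value (vertical axis) of each tested GST probe set on every array, with the classes separated by vertical lines; open circles are the 3 GST dsRNA arrays, filled circles the 3 ISWI dsRNA arrays, short lines the group means and the dotted line the level of 4. GstO2 a and b are the probe sets of 1 gene, GstE9 a is the tested one of its gene, and levels of different probe sets are not comparable; GstD7 stands out with ISWI values of 9.08 to 9.99 above GST values of 5.33 to 6.54, and GstE13 and GstO1 with ISWI values below all GST values.

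In class D, 3 of 7 tested genes rose (GstD7, GstD3 and GstD1) and 1 fell (GstD9). Among all tested probe sets 22.1% were higher and 18.1% lower. The rise of GstD7 was the largest in the family. Its values were 6.54, 5.33 and 5.69 on the GST arrays and 9.47, 9.08 and 9.99 on the ISWI arrays. The lowest ISWI array was thus well above the highest GST array, although both groups spread widely (SD 0.62 and 0.46, n = 3 each). The difference of the means was 12.7-fold, a log2 fold change of 3.66 with a 95% confidence interval of 2.91 to 4.41 (limma adjusted p = 0.000129). Leaving out single arrays gave log2 fold changes of at least 3.40, and GstD7 passed each time.

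GstD3 is a delta-class member described as lacking the amino-terminal stretch that holds the catalytic residue. It measured 9.42, 9.26 and 9.36 on the GST arrays and 10.21, 10.27 and 10.42 on the ISWI arrays. Its groups were tight and well apart, with a 1.94-fold rise (log2 fold change 0.95, interval 0.78 to 1.13, limma adjusted p = 7.32e-05). GstD1, known for activity on the insecticide DDT and used as a reporter of oxidative stress signalling, measured 11.98, 11.82 and 11.98 against 12.23, 12.16 and 12.36. All ISWI arrays again lay above all GST arrays, but the rise was small, at 1.25-fold (log2 fold change 0.32, standard error 0.07, limma adjusted p = 0.00748).

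GstD9 moved the other way. Its GST values were 11.86, 11.70 and 11.73 and its ISWI values 11.32, 11.20 and 11.50, all below the control. The ISWI group held 74.5% of the control level (log2 fold change -0.42, standard error 0.08, limma adjusted p = 0.00491).

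The other 3 tested class D genes did not pass. GstD5 had values of 4.43, 4.71 and 4.33 on the GST arrays and 4.63, 5.39 and 5.59 on the ISWI arrays. Only ISWI replicate 1 lay within the control range, and the log2 fold change of 0.72 (interval 0.14 to 1.29) had a limma adjusted p = 0.0515. Without that array GstD5 passed, with a log2 fold change of 1.00 and adjusted p = 0.0045, while without ISWI replicate 3 it was 0.52 (adjusted p = 0.126) and without GST replicate 3 it was 0.64 (adjusted p = 0.15). GstD2 and GstD10 differed by -0.02 (interval -0.47 to 0.44) and 0.02 (interval -0.31 to 0.34), with overlapping groups for both. GstD10 lay between 4.55 and 4.84 on all arrays, just above the level of 4.

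In class E, 7 of 8 tested genes passed, 4 higher and 3 lower, where 40.2% of all tested probe sets passed. GstE13 showed the largest fall of the family. It measured 9.91, 9.88 and 9.93 on the GST arrays and 7.76, 7.87 and 8.02 on the ISWI arrays. The groups were separated by many times their spread (SD 0.02 and 0.13, n = 3 each). The ISWI group held 24.6% of the control level (log2 fold change -2.02, interval -2.20 to -1.84, limma adjusted p = 3.78e-06). The log2 fold change stayed between -2.09 and -1.96 when single arrays were left out.

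The other class E genes that fell did so by less. GstE2 measured 9.62, 9.62 and 9.57 in the GST group and 8.90, 8.95 and 9.31 in the ISWI group, where replicate 3 lay nearest to the control. This was a fall to 68.4% (log2 fold change -0.55, standard error 0.11, limma adjusted p = 0.00558). GstE11 went from 9.04, 8.99 and 9.17 to 8.49, 8.70 and 8.94, and ISWI replicate 3 came close to the lowest control array. Its log2 fold change of -0.36 passed narrowly (limma adjusted p = 0.0395) and did not pass without any one of the GST arrays, without ISWI replicate 1 or without ISWI replicate 2 (adjusted p from 0.0737 to 0.133).

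Of the 4 class E genes that rose, GstE3 changed most. Its GST values were 8.03, 7.77 and 8.09 and its ISWI values 8.50, 8.58 and 9.31. ISWI replicate 3 was far above the other ISWI arrays. The rise was 1.79-fold (log2 fold change 0.84, standard error 0.21, limma adjusted p = 0.0145). Without that array the log2 fold change was 0.58, and GstE3 still passed (limma adjusted p = 0.00684). GstE3 did not pass without GST replicate 2 (adjusted p = 0.0591).

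GstE7 rose 1.53-fold, from 10.25, 10.05 and 10.22 to 10.69, 10.69 and 10.98 (limma adjusted p = 0.00174). Its neighbour GstE6 rose 1.32-fold, from 12.68, 12.58 and 12.56 to 12.90, 12.87 and 13.25 (limma adjusted p = 0.0131). All ISWI arrays were above all GST arrays for both, but GstE6 narrowly failed without GST replicate 3 (adjusted p = 0.0529). GstE12 rose by the same 1.32-fold with far less spread, from 11.16, 11.10 and 11.10 to 11.52, 11.55 and 11.50 (limma adjusted p = 0.000369).

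GstE9 did not pass. Its brighter probe set measured 12.65, 12.64 and 12.83 against 12.77, 12.66 and 12.73, with the ISWI arrays inside the control range. The log2 fold change of 0.01 had an interval of -0.12 to 0.15. The other GstE9 probe set lay between 2.68 and 2.73 on all arrays, so the probe sets of this gene disagree about whether it is detected.

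**Figure D2:**
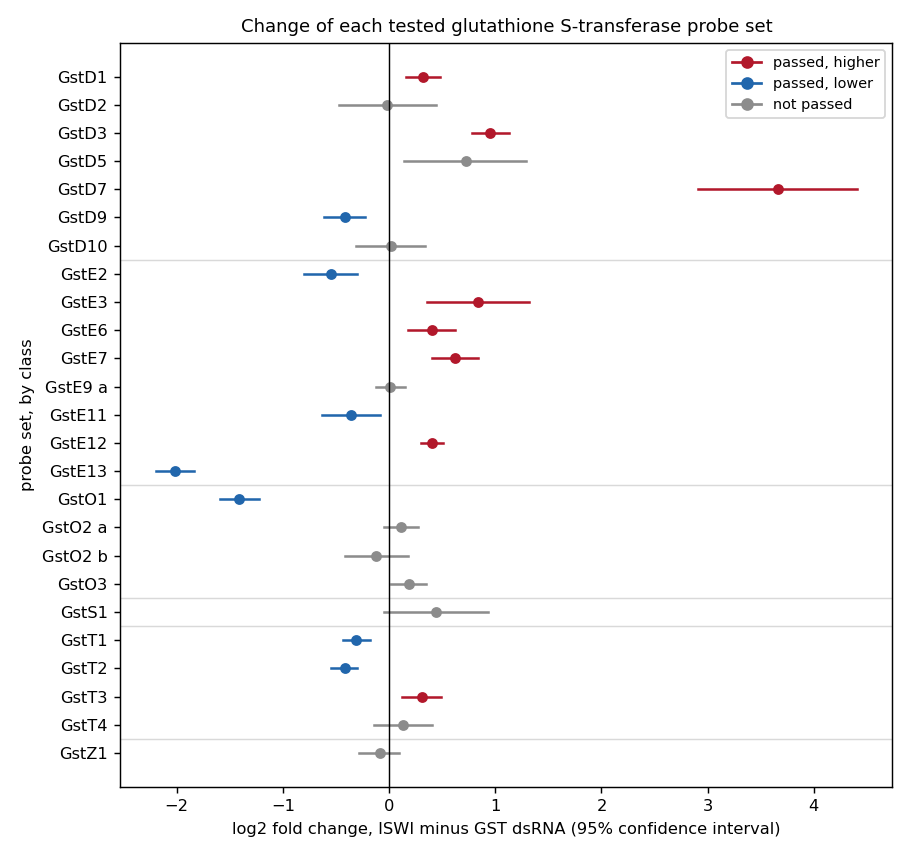
Log2 fold change of each tested GST probe set, ISWI minus GST dsRNA (horizontal axis), with its 95% confidence interval from limma; red passed and was higher, blue passed and was lower, grey did not pass, and grey lines separate the classes. GstD7 at 3.66, GstE13 at -2.02 and GstO1 at -1.41 lie apart from the remaining 22 probe sets, whose log2 fold changes all lie between -0.55 and 0.95.

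Omega-class enzymes use a cysteine and act mainly as glutathione-dependent reductases. GstO1 fell, with 8.60, 8.65 and 8.76 on the GST arrays and 7.23, 7.24 and 7.33 on the ISWI arrays. All ISWI arrays were more than 1 unit below all GST arrays. The ISWI group held 37.7% of the control level (log2 fold change -1.41, interval -1.59 to -1.23, limma adjusted p = 1.36e-05).

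The other omega genes tested, GstO2 and GstO3, did not pass. GstO3 measured 12.08, 12.04 and 12.14 against 12.23, 12.16 and 12.43, so its groups did not overlap, but the log2 fold change of 0.19 (interval 0.02 to 0.35) had a limma adjusted p = 0.0726. The probe sets of GstO2 gave 0.11 (interval -0.05 to 0.27) and -0.12 (interval -0.42 to 0.18), with opposite signs and overlapping groups. Within this class, therefore, GstO1 fell to well under the control level while the intervals for GstO2 and GstO3 exclude a fall of that size.

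Of the 4 theta-class genes, GstT1 and GstT2 fell and GstT3 rose, where 40.2% of all tested probe sets passed. GstT2 measured 10.51, 10.45 and 10.58 on the GST arrays and 10.08, 10.09 and 10.09 on the ISWI arrays, a fall to 74.5% (log2 fold change -0.42, limma adjusted p = 0.000781). GstT1 measured 11.37, 11.47 and 11.48 against 11.14, 11.07 and 11.20, a fall to 80.9% (log2 fold change -0.31, limma adjusted p = 0.00376). For both, every ISWI array was below every GST array.

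GstT3 went from 8.83, 8.89 and 8.97 to 9.10, 9.18 and 9.33, a 1.24-fold rise (limma adjusted p = 0.017). The groups did not overlap, but the call was lost without GST replicate 1 (adjusted p = 0.0691) and without GST replicate 2 (adjusted p = 0.0607). GstT4 did not pass, with 10.74, 10.92 and 10.87 against 10.90, 11.25 and 10.78 and a log2 fold change of 0.13 (interval -0.14 to 0.40).

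Sigma and zeta classes had 1 tested gene each and no call. GstS1, known from flight muscle and for acting on products of lipid peroxidation, lay just above the level of 4 on the GST arrays (4.13, 4.16 and 4.10) and at 4.16, 4.54 and 5.01 on the ISWI arrays. The ISWI arrays ranged from the control level to clearly above it, with a log2 fold change of 0.44 (interval -0.05 to 0.93, limma adjusted p = 0.133). GstS1 passed only when ISWI replicate 1 was left out, with 0.65 and adjusted p = 0.028, and without ISWI replicate 3 it was 0.22 (adjusted p = 0.306). GstZ1, whose class includes the maleylacetoacetate isomerase of tyrosine breakdown, measured 7.77, 7.78 and 7.63 against 7.64, 7.66 and 7.60, a log2 fold change of -0.09 (interval -0.28 to 0.09).

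Many of these genes lie next to each other, in the order given by a gene table of genome Release 6. The 11 class D genes lie within a stretch of 13 genes on chromosome arm 3R, and the 9 class E genes measured there within a stretch of 12 genes on arm 2R. GstO3, se, GstO2 and GstO1 follow each other on arm 3L, and GstT1 and GstT2 are neighbours on arm 2R. Some direct neighbours differed in direction. GstD9, which fell, lies next to GstD1, which rose, and GstE2, which fell, lies next to GstE3, which rose. Between the GstD genes that rose lie GstD2 and GstD5, which were tested and did not pass. GstD4 and GstD6, which were at or below 4 on all arrays, lie there too. In the GstE stretch, GstE6 and GstE7 are adjacent and both rose, and the theta neighbours both fell.

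The tested class E genes outside the stretch, GstE11, GstE12 and GstE13, also differed in direction, with log2 fold changes of -0.36, 0.40 and -2.02. GstE14, also outside the stretch, was at or below 4 on all arrays. The genes of the D and E stretches are related copies. Whether a probe set also binds the transcript of a related gene was not tested, since the probe sequences were not used here.

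**Figure D3:**
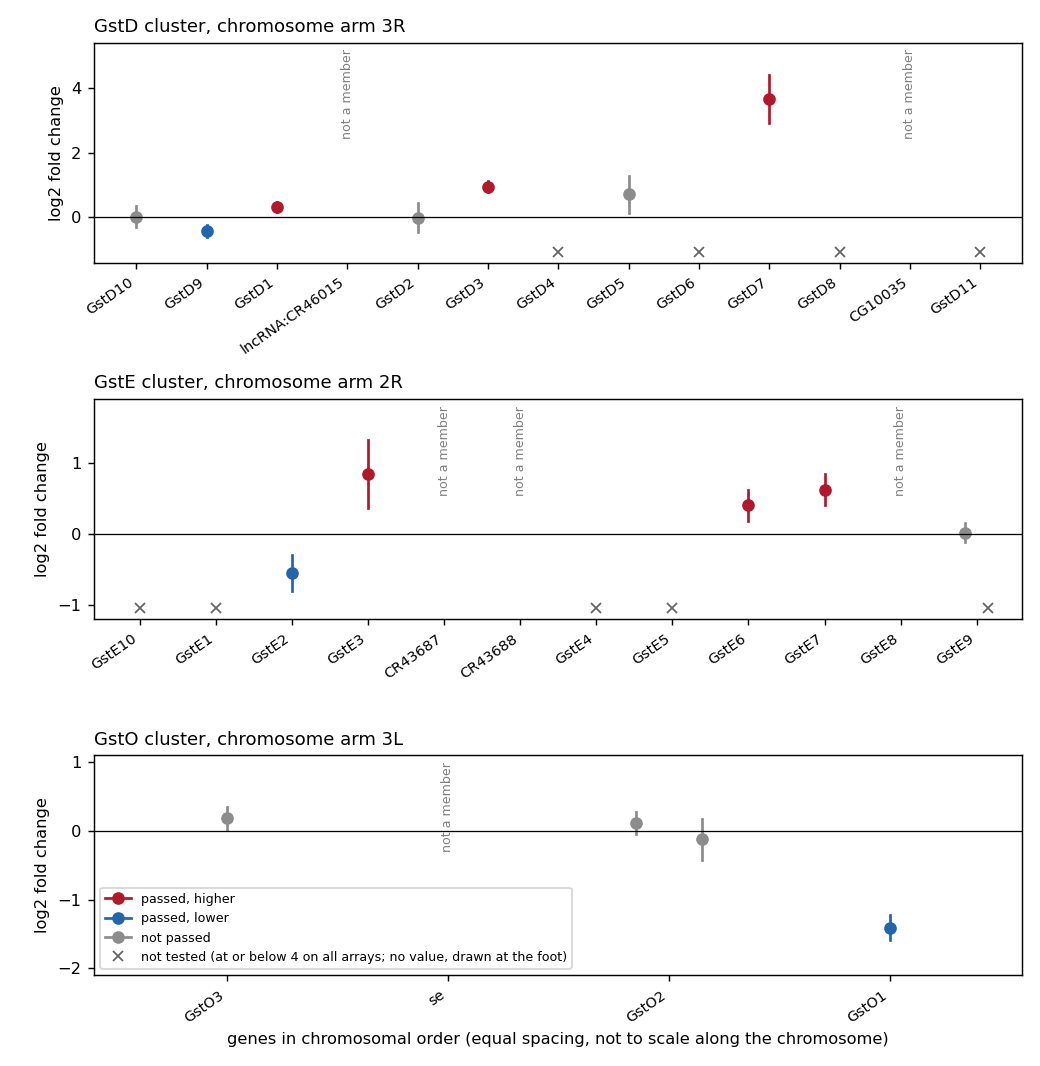
Log2 fold change, ISWI minus GST dsRNA (vertical axis, with 95% confidence intervals), along 3 stretches of neighbouring GST genes in chromosomal order, spaced equally; red passed and was higher, blue passed and was lower, grey did not pass, and crosses at the foot mark probe sets at or below 4 on all arrays, which have no value, while genes marked as not a member were not analysed among the GST genes. Neighbours of opposite direction are GstD9 (-0.42) with GstD1 (0.32) and GstE2 (-0.55) with GstE3 (0.84), and GstD7 (3.66) stands between GstD6 and GstD8, both not tested.

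The ISWI arrays differed from each other in a regular way for this family. ISWI replicate 3 gave the highest value of the 3 ISWI arrays for 21 of the 25 tested GST probe sets, or 84.0%, where it did so for 37.4% of all tested probe sets. It was the highest for all 7 tested class D genes, for 6 of 8 class E probe sets and for all 4 class O probe sets. The exceptions were GstE9, GstE12, GstT4 and GstZ1. Over the 25, replicate 3 lay a median of 0.16 above its group mean and replicates 1 and 2 lay at -0.09 and -0.05, while over all tested probe sets the 3 medians were 0.01, -0.03 and 0.02. The GST arrays showed medians of 0.01, -0.03 and 0.02 for the same 25 probe sets.

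ISWI replicate 3 was also the array with the lowest Iswi value, 7.16 against 7.66 and 7.74. Its control probe sets for RNA integrity did not stand apart: the 3' minus 5' difference was 1.86 for eIF-4a and 0.48 for actin, while ISWI replicate 2 had the highest, 2.26 and 1.06. GST replicate 1 had a mean of 12.99 over its 18S rRNA probe sets, far above the 8.31 to 9.30 of the other arrays. Without that array 7 GST probe sets were higher and 6 lower, and 2197 of all tested probe sets passed. The part of these values in the GST results was not tested. Without ISWI replicate 3, the count was again 8 higher and 7 lower, and 2742 of all tested probe sets passed. Without it, GstE3 went from a log2 fold change of 0.84 to 0.58, GstD7 from 3.66 to 3.42, GstE2 from -0.55 to -0.68, GstE6 from 0.40 to 0.28 and GstE11 from -0.36 to -0.47.

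**Figure D4:**
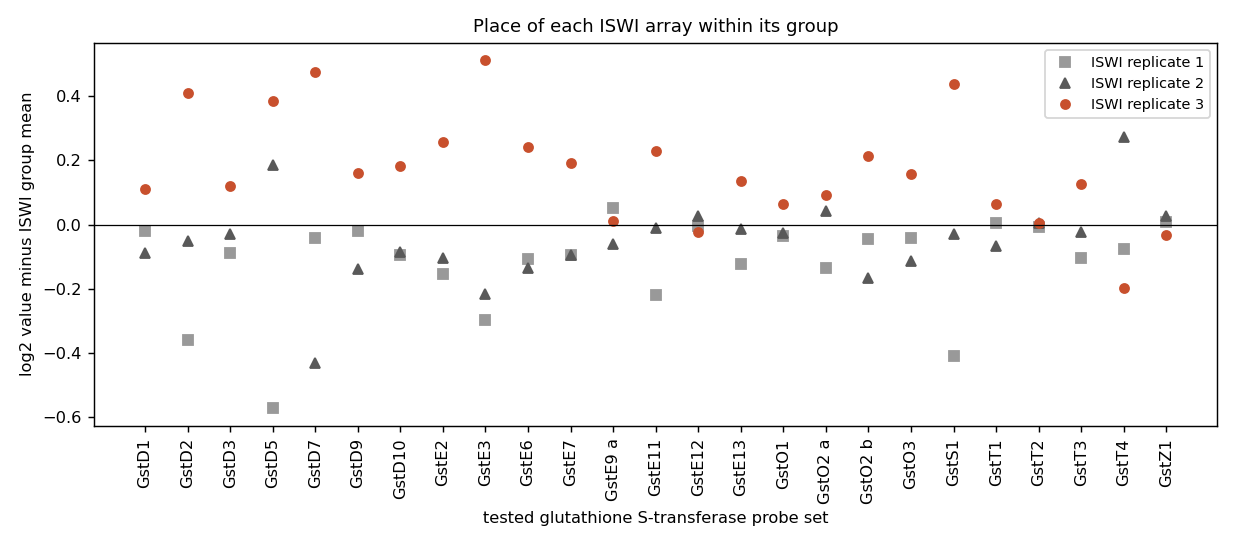
Log2 value of each ISWI array minus the mean of the 3 ISWI arrays (vertical axis) for every tested GST probe set; squares are replicate 1, triangles replicate 2 and circles replicate 3. Replicate 3 is the highest for 21 of 25 probe sets, and lies a median of 0.16 above the group mean.

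Genes that supply and use glutathione changed in both directions. Of 13 listed genes, 8 were tested, and 2 rose and 2 fell, a share of passing genes close to the 41.1% among all 5997 tested genes. The list's median log2 fold change was 0.06, against 0.03 for all. Cth, for the cystathionine gamma-lyase that makes cysteine, fell from 9.53 ± 0.08 to 8.42 ± 0.07 (SD, n = 3), and Grx1, for a glutaredoxin, fell from 8.64 ± 0.03 to 7.97 ± 0.04. Gtpx, for a glutathione peroxidase-like enzyme, rose from 12.90 ± 0.01 to 13.37 ± 0.10, and MRP, for a transporter of the family that exports glutathione conjugates, rose from 12.57 ± 0.08 to 12.86 ± 0.06. The adjusted p from limma lay between 3.16e-05 for Cth and 0.00383 for MRP. Gclc, the catalytic subunit of the rate-limiting enzyme of glutathione synthesis, did not pass, at 10.02 ± 0.05 against 10.12 ± 0.02. The listed gene Gclm was at or below 4 on all arrays, and Gss1 and Gss2 had no probe set assigned to exactly 1 gene.

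Among 6 tested genes for proteins related to GSTs, 1 passed, where 41.1% of all tested genes did. Mgstl, for a microsomal GST of a separate membrane protein family, rose from 12.05, 11.93 and 12.03 to 12.52, 12.56 and 12.69 (log2 fold change 0.59, limma adjusted p = 0.000233). All ISWI arrays were above all GST arrays. Both eEF1gamma, a translation elongation factor subunit with a GST-like domain, and Clic, a chloride channel-like protein of the GST fold, did not pass (0.04 and -0.24). The omega-class gene se, which acts in eye pigment synthesis, was at or below 4 on all arrays. The list's median log2 fold change was -0.02.

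Of 10 tested regulators of detoxification genes, 0 passed in limma on the probe set that stood for the gene, and 1, the nuclear receptor gene Hr96, had an unadjusted p below 0.05. Among all tested genes 41.1% passed. The transcription factor gene cnc, whose product CncC activates GST genes with the small Maf protein (maf-S), had a log2 fold change of 0.18 (limma adjusted p = 0.104), and that of its inhibitor Keap1 was 0.19 (adjusted p = 0.151). For maf-S it was -0.05. The list's median log2 fold change was -0.05. These are transcript values and do not measure the activity of the proteins. A dimmer probe set of bsk, the JNK kinase gene, passed at -0.20, while the one that stood for the gene gave -0.07. The gene gfzf was also counted among the proteins related to GSTs. Its 2 tested probe sets gave 0.16 and -0.42, and neither passed. Without ISWI replicate 1, Hr96 passed at 0.33 (adjusted p = 0.014), and without ISWI replicate 2, kay, a subunit gene of the AP-1 factor, passed at -0.15 (adjusted p = 0.0405).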

How the data were processed

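RNA from 6 SL2 cultures was measured on 1 array each, grouped by the treatment in the sample titles. The deposited log2 values per probe set were used. The submitters' processing notes name GCRMA, which in general corrects background, normalizes between arrays and summarises probes; its version, the scanner and other steps are not given in the sources used here. GCRMA places transcripts that are not detected at low values, here 2.01 to 3.29 for the GST probe sets not tested. Its normalization acts against shifts common to all genes. Small ones remained, as array medians over the tested probe sets lay -0.021 to 0.042 from their mean. Precision is limited by the number of arrays.

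Of 18952 probe sets, 183 controls were left out. Genes were named from the platform annotation and matched by gene number to a table of genome Release 6. The 7390 probe sets with log2 values above 4 on 3 or more arrays were tested; the level was chosen. The two-sided test was that of limma 3.58.1 (R 4.3.3; lmFit and trended eBayes). P-values were adjusted by Benjamini-Hochberg over these 7390, with 0.05 as the threshold. The script was tested on simulated data. For the listed genes, the brightest tested probe set stood for its gene. Every GST probe set is accounted for; Iswi and, from each list, up to 4 passing genes by smallest adjusted p were named, and the other genes were named for their role or after their values were seen. The members and lists were chosen with earlier results of these data known. Alternatives were other filters, normalizations, variance moderation, array weights, a replicate block, a stricter threshold and leaving out each array. No sequence is printed, as the tables used here hold none.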

Additional observations from a re-analysis of the deposited data

How the results depend on the processing

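Of the 15 GST probe sets that passed, 11 passed under every alternative applied to them (2 normalizations, 2 variance settings, array weights, the replicate block, an adjusted p of 0.01 and leaving out each array); GstE3, GstE6, GstE11 and GstT3 did not, and 0 changed sign. At an adjusted p of 0.01, 5 GST probe sets were higher and 6 lower, with 4 passing in class E, and 1749 of all probe sets passed. Without any filter on dim probe sets the family count was 8 higher and 6 lower, and 2236 of all probe sets passed. GstE11 also failed without the variance trend (adjusted p = 0.0535). The cause of these losses was not tested.

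Leaving out single arrays gave 6 to 11 higher and 6 to 7 lower GST probe sets, 4 to 5 passing in class D, 5 to 7 in class E, 3 to 6 in classes O, S, T and Z together, 2100 to 3023 among all, 4 to 4 genes of glutathione supply, 1 to 2 related proteins and 0 to 1 regulators, and Iswi stayed between -3.10 and -2.81. The higher end of 11 came without ISWI replicate 1, where GstD5, GstO2 (0.18, adjusted p = 0.0467) and GstS1 also passed; GstO3 passed without ISWI replicate 2 (0.24, adjusted p = 0.0324) and with array weights (adjusted p = 0.0447).

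With the replicate block, 10 GST probe sets were higher and 7 lower, as GstD5 (adjusted p = 0.048) and GstO3 (adjusted p = 0.0361) passed. Among all tested probe sets, 1528 were then higher and 1280 lower, 2808 in total. Deviations of same-numbered arrays correlated at -0.182, 0.123 and 0.0595, so the numbers were not taken to pair the cultures.

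Signs turned only for GST probe sets that did not pass and lay near 0. When single arrays were left out, GstD2 ranged from -0.22 to 0.16, GstD10 from -0.07 to 0.094, GstE9 from -0.021 to 0.071 and GstT4 from -0.0051 to 0.23. GstD10 was -0.13 with quantile normalization applied again and -0.011 with centred arrays, and GstE9 was -0.019 with centred arrays.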
